A study of Mus musculus with 6 samples.

Results

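The 10 genes described here are a set of macrophage genes measured in RNA from sorted cells of the embryonic mouse dorsal pancreatic bud. They are Csf1r, C1qa, C1qb, C1qc, Fcer1g, Tyrobp, Aif1, Cx3cr1, Mrc1 and Fcrls, 10 of the 24062 genes in the count tables. They were chosen by their measured values in these 6 libraries: most were far lower in mesenchyme than in epithelium and lower again in mutant mesenchyme. The levels, fraction ratios and genotype ratios of these genes are therefore a description, with no test. The study asked how gene expression in pancreatic epithelium and mesenchyme compares between wild type and Pbx mutant embryos. There was 1 library for each of 6 groups: epithelium at E12.5, mesenchyme at E12.5 and epithelium at E14.5, each from control and from mutant embryos. The labels give the control genotype as mTmG, a reporter whose cells fluoresce red (Tomato) and switch to green (GFP) after Cre recombination. The mutant genotype includes mTmG+/-, Nkx2.5-Cre+/- and Pbx2+/-. Cre is thus driven from Nkx2-5, a gene of the developing spleno-pancreatic mesenchyme, and both genotypes carry the reporter. Each library was made from pooled frozen sorted fractions, and the gate named in the labels used GFP and Tomato fluorescence with no leukocyte marker.

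Macrophages enter embryonic organs early, first from the yolk sac and later from the fetal liver, and they clear dying cells and support growing vessels and epithelia. Their survival depends on Csf1r, the receptor tyrosine kinase for the cytokines CSF1 and IL-34. C1qa, C1qb and C1qc encode the chains of C1q, the recognition protein of the classical complement pathway, which tissue macrophages produce. Tyrobp (DAP12) and Fcer1g (the common Fc receptor gamma chain) are membrane adaptors that carry receptor signals through tyrosine motifs (ITAMs) to the kinase SYK. Cx3cr1 is the receptor for fractalkine, Mrc1 is the mannose receptor CD206, Fcrls is an Fc receptor-like protein known from microglia, and Aif1 encodes the actin-binding protein IBA1. In the mouse genome (mm10, GENCODE M21 positions) the C1q genes stand side by side on the minus strand of chromosome 4: C1qb at chr4:136880129-136886187, C1qc at chr4:136889804-136893065 and C1qa at chr4:136895917-136898803. The other members lie on 7 different chromosomes, with Mrc1 at chr2:14229392-14332057 and Fcrls at chr3:87250758-87263738.

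Macrophage genes are known targets of the ETS factor PU.1, which binds purine-rich sites around the core GAGGAA. This motif was searched on both strands (GAGGAA or its reverse complement TTCCTC) in the 250 bases before the RefSeq gene start (GRCm38.p6). Of the 10 members, 7 had an entry, and Csf1r, C1qa and Tyrobp had none. The motif was found in 5 of these 7 (Aif1, C1qb, C1qc, Fcrls and Mrc1), and in 23.3% of all 32851 promoters in the table. A match is a run of letters and not a shown binding site, and no match says only that the letters are not in the window. The windows of C1qb (chr4:136886201-136886450, minus strand, 1 match), Mrc1 (chr2:14229164-14229413, plus strand, 3 matches) and Fcer1g (chr1:171234350-171234599, minus strand, 0 matches) are shown because their genes had like patterns across the libraries and differ in the number of matches. Each is printed from 5′ to 3′ with the matches in capitals.
C1qb: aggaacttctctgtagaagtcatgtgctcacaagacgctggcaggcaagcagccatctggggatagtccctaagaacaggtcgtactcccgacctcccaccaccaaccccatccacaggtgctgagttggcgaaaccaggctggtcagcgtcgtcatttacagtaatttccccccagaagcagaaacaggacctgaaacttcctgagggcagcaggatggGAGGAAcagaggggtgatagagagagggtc
Mrc1: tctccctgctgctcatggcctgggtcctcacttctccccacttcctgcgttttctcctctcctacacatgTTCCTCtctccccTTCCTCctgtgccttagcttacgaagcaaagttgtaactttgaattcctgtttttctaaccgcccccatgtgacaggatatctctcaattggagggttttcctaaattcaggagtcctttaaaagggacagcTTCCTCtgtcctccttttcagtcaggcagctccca
Fcer1g: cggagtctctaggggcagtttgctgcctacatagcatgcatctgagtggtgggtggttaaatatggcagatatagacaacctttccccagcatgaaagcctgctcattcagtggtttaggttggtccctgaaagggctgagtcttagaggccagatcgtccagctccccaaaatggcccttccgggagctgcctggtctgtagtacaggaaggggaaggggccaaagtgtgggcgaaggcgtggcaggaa

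Reads assigned to genes numbered from 14032569 to 20276045 per library. Levels are CPM, counts scaled to library size with edgeR's TMM factors, which correct library totals for composition. A fold compares 2 libraries, and the bracketed range after it is its 95% interval from counting error alone, so no fold here has a replicate check. A gene counts as measured in a comparison if either library reached 5 CPM, and as called at 2-fold or more with an interval that leaves out 1. Pbx2, whose heterozygous allele is only a part of the mutant genotype, stood at 89.9 and 56.0 CPM in control and mutant mesenchyme. Pbx2 stood at 54.5 and 49.7 CPM in E12.5 epithelium, and at 34.0 and 47.3 CPM in E14.5 epithelium. At E14.5 it was not below its control, so the epithelial libraries are called by their labels below. Nkx2-5 reached 41.2 and 66.8 CPM in the control and mutant mesenchyme and at most 3.68 CPM in the epithelial libraries. General mesenchymal genes such as collagens still summed to between 4212 and 9341 CPM in the epithelial libraries, against 8721 and 7662 CPM in mesenchyme.

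Csf1r was the member with the most reads in E12.5 control epithelium. Its level was 82.9 CPM in E12.5 control epithelium, 47.1 CPM in the E12.5 epithelium labelled mutant, 12.01 CPM in control mesenchyme, 1.80 CPM in mutant mesenchyme, 42.5 CPM in E14.5 control epithelium and 77.9 CPM in the E14.5 epithelium labelled mutant. Both mesenchymal libraries lay below all 4 epithelial ones, and the order of the genotypes in epithelium was opposite at the 2 stages. In mesenchyme, Csf1r was 6.67-fold lower in the mutant (4.46 to 10.3), from 179 reads to 28. In E12.5 epithelium it was 1.76-fold lower under the mutant label (1.61 to 1.92), and in E14.5 epithelium 1.83-fold higher (1.66 to 2.03). Its highest levels, in E12.5 control and in E14.5 labelled mutant epithelium, had overlapping counting intervals. Part of the last Csf1r exons overlaps Hmgxb3 on the other strand, whose own level ran only from 29.6 to 46.6 CPM. The strand setting of the counting is not given in the sources used here. Reads in the shared bases therefore cannot be told apart.

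The CSF1R ligands showed another pattern. Csf1, the main ligand, was at 24.4, 19.1, 52.2, 33.8, 13.9 and 33.5 CPM in the same library order, with its highest level in control mesenchyme. Its levels in mutant mesenchyme and in the E14.5 epithelium labelled mutant were close, while Csf1r was at 1.80 and 77.9 CPM there. Csf1 was 1.55-fold lower in mutant mesenchyme (1.38 to 1.73) and 2.41-fold higher in the E14.5 epithelium labelled mutant (2.04 to 2.85). Il34, the other ligand, stayed at or below 6.03 CPM in every library and was 4.17-fold lower in mutant mesenchyme on so few reads that its interval held 1. Over the list of 10 ligands that act on macrophages, all 10 were below 1 in mutant against control mesenchyme, 5 of them with an interval below 1. Only Cx3cl1 of the 6 measured ligands was called lower there.

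The C1q chains were close to each other in level and moved mostly together. C1qb stood at 44.0, 30.3, 7.04, 2.12, 54.1 and 68.5 CPM from E12.5 control epithelium to the E14.5 epithelium labelled mutant. C1qa stood at 27.7, 21.5, 7.78, 1.54, 50.7 and 47.3 CPM, and C1qc at 32.4, 28.9, 10.3, 3.02, 43.2 and 68.6 CPM. All 3 chains had their lowest level in mutant mesenchyme and their next lowest in control mesenchyme. Mutant mesenchyme was 5.04-fold lower for C1qa (3.23 to 8.18), 3.32-fold lower for C1qb (2.23 to 5.07) and 3.42-fold lower for C1qc (2.45 to 4.84). In E12.5 epithelium the genotype difference was smaller, at 1.29-fold lower for C1qa (1.13 to 1.48) and 1.45-fold lower for C1qb (1.30 to 1.63), while the interval for C1qc held 1. At E14.5, C1qb was 1.27-fold (1.15 to 1.39) and C1qc 1.59-fold (1.44 to 1.76) higher in the epithelium labelled mutant, and the interval for C1qa held 1. The chains thus parted at E14.5, where C1qa alone of the 10 members lay below 1. Among 12 other complement genes, which include the activating enzymes, regulators and C3, 2 were measured in mesenchyme between genotypes and none was called.

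The signalling adaptors Fcer1g and Tyrobp differed in how they stood in mesenchyme. Fcer1g was at 24.6, 15.6, 4.23, 0.514, 25.4 and 42.7 CPM, and its 8 reads in mutant mesenchyme were the fewest of any member in any library. Tyrobp was at 18.3, 10.6, 1.48, 0.772, 12.5 and 25.4 CPM, low in both mesenchymal libraries. Fcer1g was 8.21-fold lower in mutant than in control mesenchyme (3.92 to 19.8), although neither library reached 5 CPM. Tyrobp was 1.91-fold lower there, from 22 reads to 12, with an interval that held 1. In epithelium, Tyrobp was 1.72-fold lower under the mutant label at E12.5 (1.43 to 2.08) and 2.02-fold higher at E14.5 (1.69 to 2.43). Fcer1g was 1.58-fold lower at E12.5 (1.35 to 1.85) and 1.68-fold higher at E14.5 (1.47 to 1.92). Syk, the kinase that ITAM adaptors recruit, was at 13.5, 5.45, 1.61, 0.579, 9.25 and 8.04 CPM. Syk was also lowest in mutant mesenchyme, but in E14.5 epithelium it was not above the control, unlike Tyrobp and Fcer1g. Of 15 ITAM signalling genes, 9 were measured between the control fractions and all 9 were called lower in mesenchyme, beside the 13.6% of all measured genes given below for that comparison. Of the 9, Sirpa, Ptpn6 and Lyn reached 5 CPM in both libraries, and the others passed through epithelium alone, which fixed their direction. In mesenchyme 3 were measured between genotypes and none was called.

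Cx3cr1 and its ligand did not follow each other. Cx3cr1 stood at 27.5, 16.0, 4.76, 1.61, 28.8 and 31.0 CPM, and its ligand Cx3cl1, which encodes fractalkine, at 9.70, 19.97, 18.7, 7.72, 29.3 and 23.3 CPM. Cx3cr1 was 2.96-fold lower in mutant mesenchyme (1.85 to 4.88, both libraries below 5 CPM), where Cx3cl1 was 2.42-fold lower (1.95 to 3.03). In E12.5 epithelium the receptor was 1.71-fold lower under the mutant label (1.47 to 1.997), while the ligand was 2.06-fold higher (1.72 to 2.47). Cx3cr1 exons overlap those of the unnamed gene model Gm33858 on the other strand, so, as for Csf1r, reads in the shared bases cannot be told apart. In E14.5 epithelium the interval for Cx3cr1 held 1, and Cx3cl1 was 1.26-fold lower under the mutant label (1.08 to 1.46).

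Mrc1 and Fcrls, both surface receptors, were lower in mutant mesenchyme by less than Csf1r. Mrc1 was at 34.1, 22.3, 5.57, 2.64, 28.4 and 42.4 CPM, and Fcrls at 23.4, 8.61, 5.03, 1.74, 17.1 and 28.4 CPM. Mutant mesenchyme was 2.11-fold lower for Mrc1 (1.44 to 3.15) and 2.90-fold lower for Fcrls (1.84 to 4.68). Fcrls had the largest genotype ratio of the members in epithelium at E12.5, 2.72-fold lower under the mutant label (2.24 to 3.32), and was 1.67-fold higher at E14.5 (1.42 to 1.96). Mrc1 was 1.53-fold lower at E12.5 (1.34 to 1.74) and 1.49-fold higher at E14.5 (1.31 to 1.70). Aif1 had the lowest CPM of the members in every epithelial library, with no correction for length, at 4.90, 3.09, 0.872, 0.965, 3.56 and 7.61 CPM. In mesenchyme, 13 reads in the control and 15 in the mutant gave no difference detectable at this depth, as also for Tyrobp. In E14.5 epithelium Aif1 was 2.14-fold higher under the mutant label (1.52 to 3.04).

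**Figure D1:**
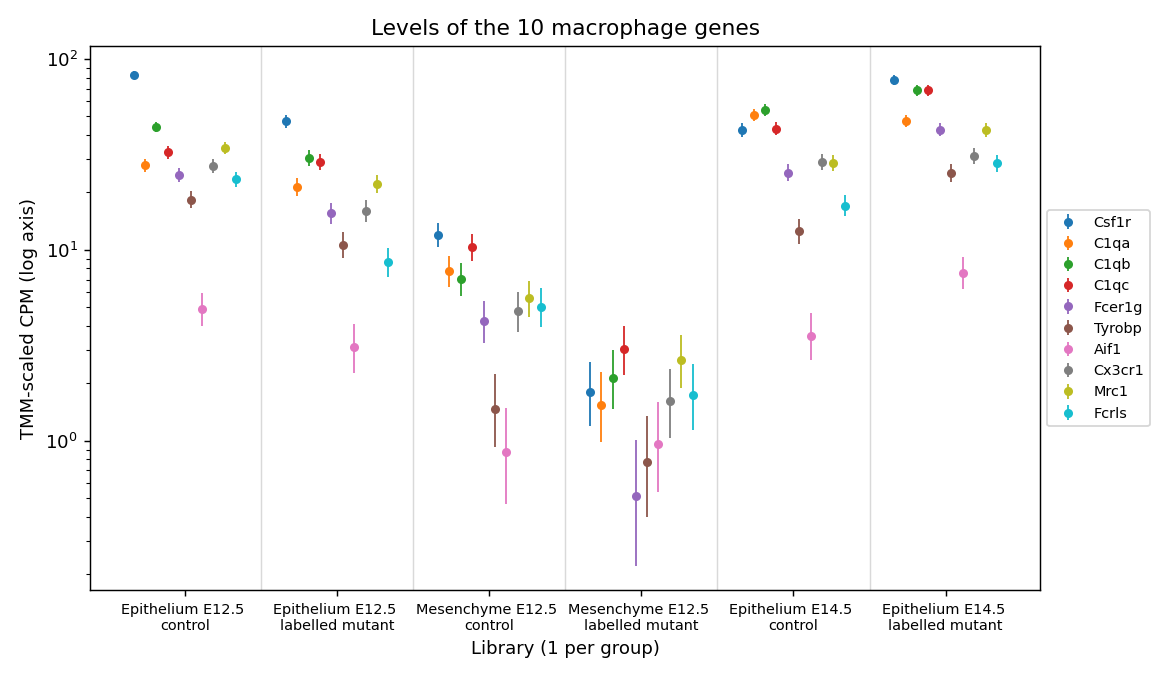
TMM-scaled CPM on a log axis for each of the 10 macrophage genes in each of the 6 libraries (1 per group). Points are single libraries and bars are 95% Poisson intervals for counting error; every member has its lowest levels in the 2 mesenchymal libraries, and Fcer1g reaches the lowest level, 0.514 CPM, in mutant mesenchyme.

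To compare members with each other, levels were divided by exon length. In E12.5 control epithelium the level per kilobase was 40.4 CPM for C1qb, 32.9 for Fcer1g, 32.5 for Tyrobp, 26.9 for C1qc and 26.7 for C1qa. It was 17.0 CPM per kilobase for Csf1r, 10.3 for Fcrls, 6.34 for Mrc1, 6.10 for Cx3cr1 and 4.85 for Aif1. The neighbours that had overlapping counting intervals were Fcer1g with Tyrobp, C1qc with C1qa, Mrc1 with Cx3cr1, and Cx3cr1 with Aif1. Per length, Csf1r thus stood below the C1q chains and the adaptors, although it had the most reads. In control mesenchyme the order was led by C1qc at 8.59, C1qa at 7.48 and C1qb at 6.47 CPM per kilobase, and Tyrobp had dropped to 2.62, close to Csf1r at 2.46. In the E14.5 epithelium labelled mutant the highest values were 63.0 for C1qb, 57.1 for Fcer1g and 57.0 CPM per kilobase for C1qc. In these bulk libraries, fewer macrophages and less RNA of these genes per macrophage cannot be told apart.

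Between the sorted fractions at E12.5, all 10 members were lower in mesenchyme. Summed over the 10, control epithelium had 320 CPM and control mesenchyme 59.1 CPM, which was 5.41-fold lower (5.04 to 5.81). In the controls all 9 measured members were called lower, where 13.6% of all 12066 measured genes were called lower and 7.00% higher. This contrast was among the values that chose the members, so nothing is read from the count. Of the 9, Fcer1g, Tyrobp and Cx3cr1 reached 5 CPM in epithelium alone, which fixed their direction. The fold ran from 3.14-fold lower for C1qc (2.63 to 3.76) to 12.4-fold lower for Tyrobp (8.08 to 20.05), and the median log2 ratio over all 10 was -2.54, against 0.03 over all measured genes. Aif1, not measured, was 5.62-fold lower (3.15 to 10.9). Between the fractions labelled mutant, the sum over the 10 genes went from 204 CPM in epithelium to 16.7 CPM in mesenchyme, 12.2-fold lower (10.7 to 13.9). There again 9 measured members were called lower, beside 12.9% of all measured genes called lower and 5.42% higher. All 9 reached 5 CPM through the epithelial library only, which fixed their direction. Fcer1g was 30.3-fold lower (15.1 to 70.9) and Csf1r 26.2-fold lower (17.9 to 39.7), while Fcrls was 4.96-fold lower (3.26 to 7.81) and Aif1 3.20-fold lower (1.76 to 6.16).

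**Figure D2:**
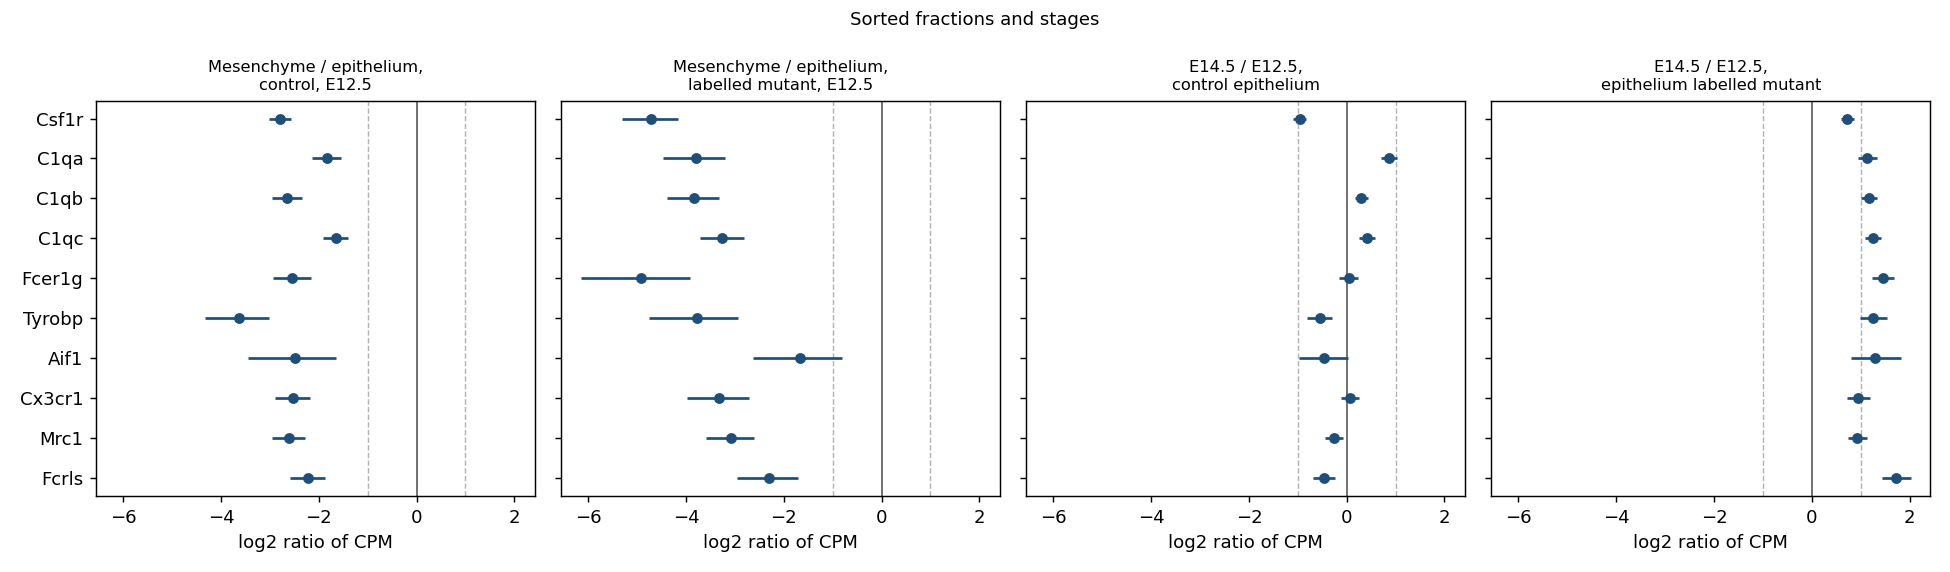
Log2 ratio of CPM for each macrophage gene between mesenchyme and epithelium at E12.5 (left pair of panels) and between E14.5 and E12.5 epithelium (right pair). Points are ratios of 2 libraries, bars are 95% intervals for counting error, dashed lines mark 2-fold; all 10 points lie left of 0 in both fraction panels and right of 0 in the epithelium labelled mutant.

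In mutant against control mesenchyme, 9 of the 10 members were lower and Aif1 was 1.11-fold higher with an interval that held 1. Control mesenchyme had a summed level of 59.1 CPM and mutant mesenchyme one of 16.7 CPM, 3.53-fold lower (3.07 to 4.07), on 881 and 260 reads. Only 6 members were measured (Csf1r, C1qa, C1qb, C1qc, Mrc1 and Fcrls), all through the control library alone, and all 6 were called lower, beside 3.50% of 11188 measured genes called lower and 1.96% higher. This contrast chose the members too. With DESeq2 size factors 5 were called lower. Without the 5 CPM condition, for which no share of all genes is given, 8 were called lower, and Tyrobp and Aif1 had intervals that held 1. The median log2 ratio over all 10 was -1.65, against -0.01 over all measured genes. This comparison and the fraction comparisons share the mesenchymal libraries.

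In epithelium the genotype difference took opposite directions at the 2 stages, and the pairs share no library. At E12.5 the sum over the 10 was 320 CPM for the control against 204 CPM for its counterpart labelled mutant, 1.57-fold lower (1.502 to 1.64). All 10 members lay below 1, 9 of them with an interval below 1, and C1qc was the exception. The called members were 1 of 9 measured (Fcrls), beside 3.21% of all measured genes called lower and 1.79% higher. At E14.5 the sum over the 10 was 306 CPM for the control against 440 CPM for its counterpart labelled mutant, 1.44-fold higher (1.38 to 1.49). Of the 10 members 9 lay above 1 and 8 had an interval above 1. Tyrobp and Aif1, 2 of 10 measured, were called higher, beside 9.64% of all measured genes called higher and 6.40% lower. Aif1 reached 5 CPM only in the library where it was higher, and Tyrobp was not called with DESeq2 size factors (log2 ratio 0.98). The median log2 ratio was -0.66 at E12.5 and 0.70 at E14.5, against 0.00 and -0.03 over all measured genes. The E14.5 pair also differed in the general mesenchymal genes, whose sums were 4717 CPM for the control and 9341 CPM for its counterpart, with 8 of 12 called higher. General epithelial genes summed to 6692 and 3606 CPM, with 6 of 12 called lower. The part of these differences in the macrophage gene ratios was not tested.

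**Figure D3:**
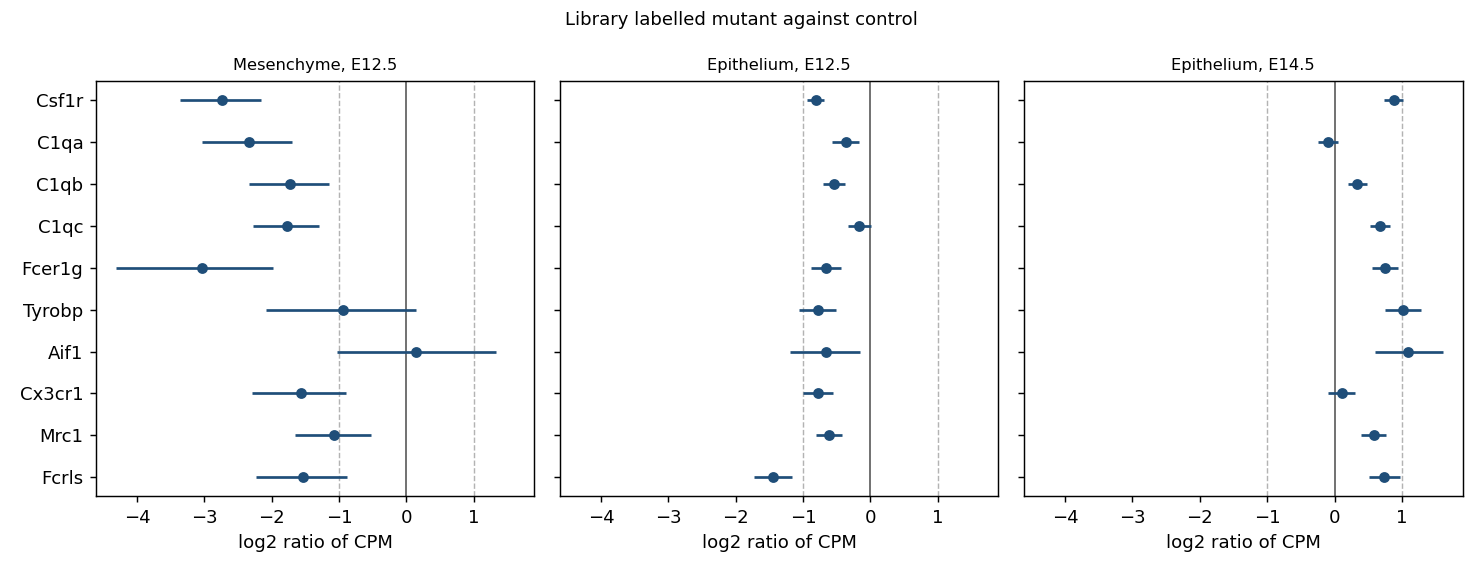
Log2 ratio of CPM, library labelled mutant against control, for each macrophage gene in E12.5 mesenchyme, E12.5 epithelium and E14.5 epithelium. Points are ratios of 2 libraries, bars are 95% intervals for counting error, and dashed lines mark 2-fold; the points lie mostly left of 0 in both E12.5 panels and mostly right of 0 at E14.5.

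Between E12.5 and E14.5, the members of the control epithelium differed little in amount and more in make-up. The summed level was 320 CPM at E12.5 and 306 CPM at E14.5, 1.04-fold lower (1.01 to 1.08); without Csf1r the log2 ratio of the sum was 0.15, in the other direction. None of the 9 measured members was called in either direction, beside 11.2% of all measured genes called lower and 6.53% higher, although with plain CPM 1 member, Csf1r, was called lower. Csf1r was 1.95-fold lower at E14.5 (1.78 to 2.14) and Tyrobp 1.46-fold lower (1.22 to 1.75), while C1qa was 1.83-fold higher (1.64 to 2.04) and C1qc 1.33-fold higher (1.19 to 1.49). The receptor and the C1q chains thus lay on opposite sides of 1, with 5 members below and 5 above. In the epithelium labelled mutant all 10 members were higher at E14.5. The summed level was 204 CPM at E12.5 and 440 CPM at E14.5, 2.16-fold higher (2.06 to 2.25). There 7 of 10 measured members were called higher, beside 6.27% of all measured genes called higher and 5.89% lower. Of the 7, Aif1 reached 5 CPM at E14.5 alone, which fixed its direction. The members were chosen by their values in these libraries, so the count is a description. The fold ran from 1.65-fold higher for Csf1r (1.504 to 1.82) to 3.30-fold higher for Fcrls (2.71 to 4.06). The stage and genotype comparisons share epithelial libraries, so these values are not separate observations.

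The make-up of the macrophage gene reads was compared as the share of each member in the reads of the 10, which does not depend on library size. Csf1r took 25.9% of these reads in E12.5 control epithelium (Wilson 95% interval 24.9 to 27.0), 23.1% in the E12.5 epithelium labelled mutant, 20.3% in control mesenchyme (17.8 to 23.1), 10.8% in mutant mesenchyme (7.56 to 15.1), 13.9% in E14.5 control epithelium (12.9 to 14.9) and 17.7% in the E14.5 epithelium labelled mutant. The Csf1r intervals of the mesenchymal libraries did not overlap. The C1q chains together took 32.6%, 39.5%, 42.6%, 40.0%, 48.3% and 41.9% in the same order, lowest in E12.5 control epithelium and highest in E14.5 control epithelium. C1q reads per Csf1r read, a ratio chosen after its values were seen, were 1.26 in E12.5 control epithelium (1.18 to 1.34), 1.71 in the E12.5 epithelium labelled mutant (1.56 to 1.88), 2.09 in control mesenchyme (1.75 to 2.52), 3.71 in mutant mesenchyme (2.43 to 5.86), 3.48 in E14.5 control epithelium (3.18 to 3.82) and 2.37 in the E14.5 epithelium labelled mutant (2.204 to 2.54). The ratio was lowest in E12.5 control epithelium and highest in mutant mesenchyme and E14.5 control epithelium, whose intervals overlapped. In mutant mesenchyme the high ratio went with a low Csf1r share, since the C1q share there was not above that of control mesenchyme. Mrc1 took between 9.28% and 10.9% of the reads in the 4 epithelial libraries, 9.42% in control mesenchyme (7.66 to 11.5) and 15.8% in mutant mesenchyme (11.8 to 20.7). Aif1 took 5.77% in mutant mesenchyme (3.53 to 9.30) and between 1.16% and 1.73% elsewhere. Fcer1g took 3.08% in mutant mesenchyme (1.57 to 5.95) and between 7.15% and 9.71% elsewhere. The shares in mutant mesenchyme rest on 260 reads in all.

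**Figure D4:**
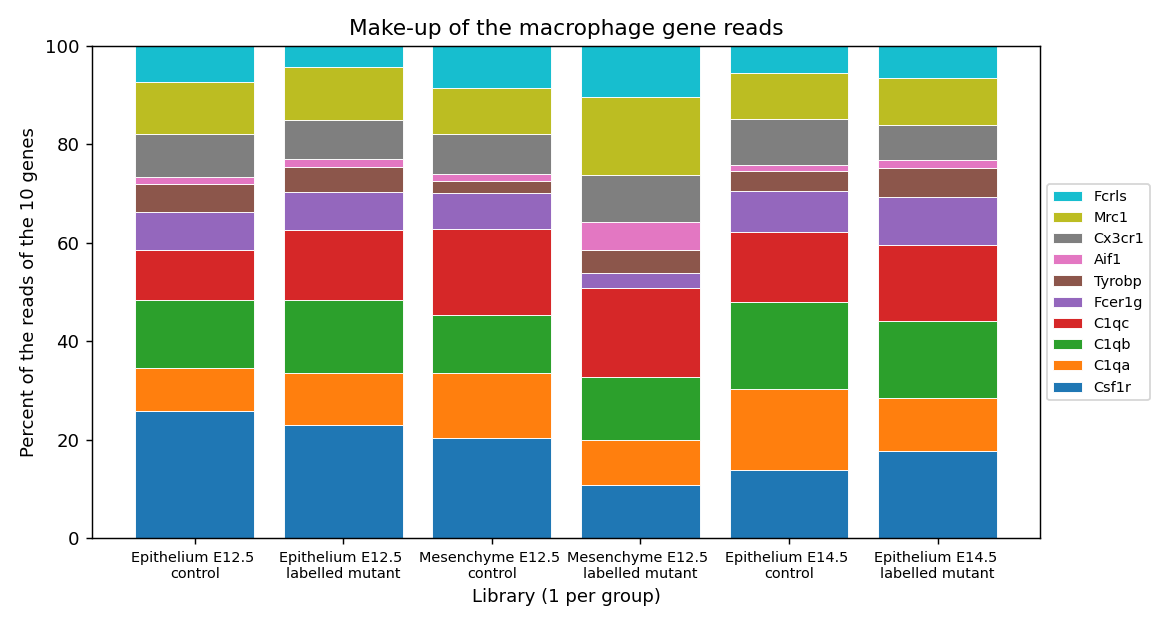
Share of each macrophage gene in the reads of the 10 genes, in percent, as 1 stacked bar per library. The Csf1r segment at the base runs from 25.9% in E12.5 control epithelium to 10.8% in mutant mesenchyme, and the C1q segments above it are widest together in E14.5 control epithelium (48.3%).

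Lists of other genes were read beside the members. Of 24 other macrophage genes, 17 of 19 measured were called lower in control mesenchyme than in control epithelium, beside 13.6% of all measured genes. Between the fractions labelled mutant 12 of 16 were called lower, beside 12.9% of all measured genes. Most of them reached 5 CPM in epithelium alone, which fixed their direction. Adgre1, the F4/80 antigen (listed under its older symbol Emr1), stood at 29.4, 8.34, 3.89, 0.386, 14.8 and 19.3 CPM, and Cd68, a lysosomal glycoprotein, at 13.2, 8.87, 3.82, 0.514, 6.71 and 15.1 CPM. In mutant against control mesenchyme Adgre1 was 10.1-fold lower (4.36 to 28.6) and Cd68 7.43-fold lower (3.53 to 18.0), both below 5 CPM. Lyz2, lysozyme, stood at 19.99 and 5.59 CPM in the mesenchymal pair, 3.57-fold lower in the mutant (2.80 to 4.59). Not all of the list did the same between the mesenchymal libraries. Over all 24 genes 15 lay below 1 and 9 above, 12 with an interval below 1 and 5 with an interval above. Irf8, a myeloid transcription factor, was at 2.08 and 10.2 CPM, 4.92-fold higher in the mutant (3.33 to 7.48). Laptm5, a lysosomal protein of leukocytes, was at 18.5 and 23.3 CPM, 1.26-fold higher (1.07 to 1.48). Spi1, which encodes PU.1, was at 0.805 and 0.900 CPM and Ptprc (CD45) at 0.402 and 0.707 CPM in the mesenchymal pair, with intervals that held 1. Thus 2 of the 6 measured were called lower, Lyz2 and Fcgr3, and 1 higher, Irf8. Of all measured genes, 3.50% were called lower and 1.96% higher. Fcgr3 reached 5 CPM only in the control and Irf8 only in the mutant, which fixed their directions.

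Genes of tissue-resident macrophages were mixed. Dab2, an endocytic adaptor that other cells express too and the most abundant gene of the list, was at 142, 122, 120, 104, 67.5 and 137 CPM and was only 1.16-fold lower in mutant mesenchyme (1.08 to 1.24). F13a1, the coagulation factor XIII A chain, was at 56.5, 48.5, 9.05, 1.99, 55.6 and 70.7 CPM and was 4.54-fold lower in mutant mesenchyme (3.06 to 6.95). Lyve1, a hyaluronan receptor, was at 6.22, 4.93, 2.82, 0.707, 30.8 and 38.6 CPM, and so differed between stages more than any member did. Stab1, a scavenger receptor also of endothelium, was at 47.0, 25.4, 4.90, 3.02, 23.6 and 31.5 CPM. Of the 12 genes on this list, 10 had a read in the mesenchymal pair, and all 10 lay below 1 in the mutant, 5 with an interval below 1. Of the 2 measured, F13a1 was called lower and Dab2 was not. F13a1 reached 5 CPM only in the control, which fixed its direction. Microglial genes were mixed: of 10, 3 were measured between the mesenchymal libraries and none was called. Olfml3 and Tmem119 were among these 3, at 333 and 80.1 CPM in control mesenchyme and 276 and 59.4 CPM in mutant mesenchyme. In E14.5 control epithelium they were at 20.4 and 43.4 CPM. Of the 10 genes, 5 had 0 reads in mutant mesenchyme, against 1 in control mesenchyme. Over the 9 with a read there, 6 lay below 1 and 3 above, 4 with an interval below 1 and 2 above. In the E14.5 epithelium labelled mutant, Olfml3 and Tmem119 were called higher. Sall1, at 5 CPM in the control alone, was called lower.

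Markers of other cell types were summed in each library as well. Mast cell markers, which matter here because mast cells also use Fcer1g, summed to 24.9 and 12.9 CPM in E12.5 control and labelled mutant epithelium, 0.134 and 0.579 CPM in control and mutant mesenchyme, and 125 and 237 CPM in E14.5 control and labelled mutant epithelium. Neutrophil markers summed to 217, 104, 0.134, 0.386, 197 and 12.9 CPM in the same order. In E14.5 epithelium the neutrophil markers were thus lower in the library labelled mutant, where 9 of the 10 macrophage genes lay above 1. There 5 of 6 measured neutrophil markers were called lower, beside 6.40% of all measured genes. All 5 reached 5 CPM only in the control library, which fixed their direction. In both mesenchymal libraries Mcpt4, Tpsb2, Tpsab1, Cma1 and Fcer1a of the mast cell list and S100a9, Ngp, Ltf, Camp, Mpo and Elane of the neutrophil list were at 0 reads. Endothelial markers summed to 279, 333, 37.9, 40.3, 249 and 225 CPM, lower in both mesenchymal libraries. Egfl7 alone made up 27.6 and 23.1 CPM of the mesenchymal sums, while Pecam1, at 2.48 and 6.37 CPM, was called higher in mutant mesenchyme, having reached 5 CPM there alone. Of the 10 endothelial markers 4 had an interval above 1 and 2 below between the mesenchymal libraries. The macrophage members were chosen as lower there, so their intervals are not set against this count. Of the 24 other macrophage genes 5 had an interval above 1 and 12 below. Erythroid markers summed to 0.706, 17.9, 65.7, 2.12, 6.10 and 28.6 CPM. In mutant mesenchyme 3 of 3 measured were called lower, beside 3.50% of all measured genes. All 3 reached 5 CPM only in the control library, which fixed their direction. Monocyte and dendritic markers summed to 31.4, 35.2, 26.5, 31.6, 51.4 and 57.9 CPM, of which Zbtb46 alone gave 25.0 and 30.6 CPM in control and mutant mesenchyme. Ccr2, the monocyte chemokine receptor, had 0 reads in both mesenchymal libraries and from 4.14 to 8.15 CPM in the epithelial ones. Lymphoid markers summed to between 1.99 and 14.2 CPM. The part of these cell types in the macrophage gene ratios was not tested.

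**Figure D5:**
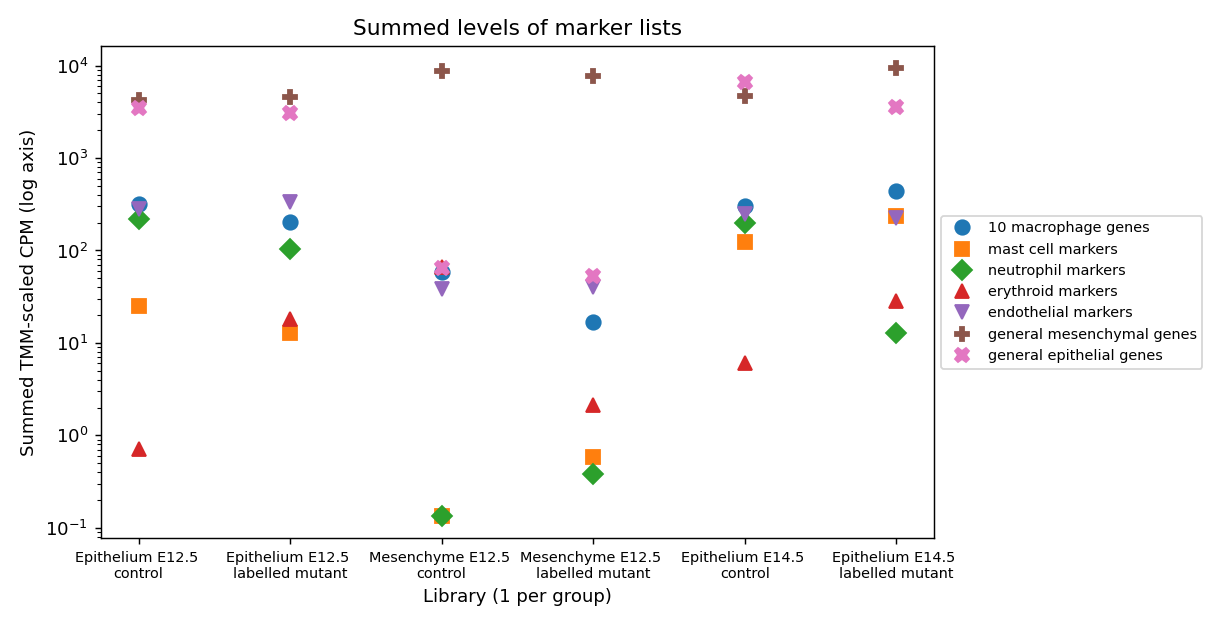
Summed TMM-scaled CPM on a log axis of the 10 macrophage genes and of marker lists for other cell types in the 6 libraries. The macrophage genes and the endothelial markers are both lower in mesenchyme. In control and mutant mesenchyme the macrophage genes stand at 59.1 and 16.7 CPM, a difference on which they were chosen. The endothelial sum, mostly Egfl7 there, stands at 37.9 and 40.3 CPM. The 24 other macrophage genes, not drawn, sum to 122 and 112 CPM there, with 15 lower and 9 higher in the mutant.

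The members resembled each other across the 6 libraries, as their choice implies. Pearson's r between the log2 level of each and the mean of the other 9 ran from 0.926 for Aif1 to 0.996 for C1qb; it describes 6 points that share fraction and stage. The 10 other genes with the pattern most like the mean of the members were Tbxas1, Cd53, Sash3, Atad1, Pf4, Lrp11, Steap1, Gata2, Ctss and Efna1, with r from 0.992 to 0.999. Tbxas1, thromboxane synthase, was at 4.00, 2.63, 0.671, 0.0643, 4.18 and 5.60 CPM. Cd53, a leukocyte tetraspanin, was at 16.6, 8.02, 1.48, 0.129, 13.8 and 20.5 CPM. Both thus had their lowest level in mutant mesenchyme and their highest in the E14.5 epithelium labelled mutant, as 7 of the 10 members did. Likeness in r does not mean a like size of difference: Atad1 ranged only from 92.0 to 114 CPM.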

How the data were processed

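RNA sequencing was done on 6 pooled libraries of sorted cells, 1 per group. For each library the authors deposited raw read counts by gene symbol, which the table names call deduplicated. The assembly was mm10, and Cufflinks 2.2.1 and Cuffdiff 2.2.1 were used, per the submitters' processing notes. No source used here names the counting program, annotation or strand setting (not given in the sources used here). The 5 summary lines in each table were kept out of library totals: 4.69% to 8.84% of reads fell on no gene, 1.53% to 1.72% were ambiguous and 13.7% to 20.1% were not unique.

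Counts were scaled to CPM with TMM factors (0.941 to 1.047) from edgeR 4.0.16 in R 4.3.3. Ratios, with exact Clopper-Pearson 95% intervals from the conditional binomial, and Poisson and Wilson intervals were computed in Python 3.11.15 (numpy 2.4.6, pandas 2.3.3, scipy 1.17.1, matplotlib 3.10.9) and tested on simulated data. Since the reads carry no molecular identifiers and may share molecules, intervals cover counting error only. Where 1 of a pair had 0 reads, 3 counts stood in as the floor. No test across samples was made, since each comparison has 1 library a side. A single genotype term over the 3 pairs would count variation of the genotype difference among fractions and stages as error. Lengths and positions came from GENCODE M21 (same assembly as mm10), and promoter sequences from RefSeq, GRCm38.p6.

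The members and the 14 other gene lists were chosen with earlier results of these data known. Of 157 list genes 1, Ly6g, matched no table row. The naming rule takes the members, up to 6 of the most abundant genes of each list with Ptprc, Spi1, Adgre1, Cd68, Csf1, Il34 and Cx3cl1, and the 10 genes outside the set most correlated with the members' mean log2(CPM + 0.5). Not every gene under the rule is printed; which of them are, and the called genes named beside small counts, was settled with the values known. Alternatives were plain CPM, DESeq2 1.42.0 size factors, thinning, other filters and thresholds, scaling without the 50 most abundant genes, and the member with the most reads left out of the sums. Some alleles and genes are not reported here.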

Additional observations from a re-analysis of the deposited data

Results flagged for a closer look

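The ratio of the library labelled mutant to the control lay on opposite sides of 1 in epithelium at E12.5 and at E14.5 for 6 of the 10 macrophage genes, each measured at 5 CPM or more in both pairs and with both intervals leaving out 1. Aif1 did so too, but it was below 5 CPM in both E12.5 libraries. For Csf1r the log2 ratio was -0.82 at E12.5 and 0.88 at E14.5, a difference of 1.69. For Fcrls it was -1.44 and 0.74, a difference of 2.18, and for Tyrobp -0.78 and 1.02, a difference of 1.80. The differences were 1.41 for Fcer1g (-0.66 and 0.75), 1.19 for Mrc1 (-0.61 and 0.58) and 0.88 for C1qb (-0.54 and 0.34). There was 1 library on each side, so these differences between stages were not tested.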

How the results depend on the processing

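Ratios of single members kept their direction where they were past 2-fold, under each alternative run. The ratios of 2 members within counting error, Fcer1g and Cx3cr1 between the stages in controls, changed sign to -0.11 and -0.09 with plain CPM and to -0.01 and -0.03 after thinning. Plain CPM moved the median of all genes by -0.15 in that comparison. The 60 shares recomputed after thinning, a setting chosen after seeing the data, stayed within their intervals. Thinning went down to the E14.5 epithelium labelled mutant at 14032569 reads, whose shares it left unchanged. The other libraries had 14829378 to 20276045 reads, so their shares had little room to move. Of 126 recomputed counts of called members 113 stayed within 1.5 times the reported count. Many reported counts were 0, and each of these that stayed at 0 is among the 113. With a 20 CPM filter, 0 members were called lower in mutant mesenchyme, 5 lower between the fractions labelled mutant and 1 higher in the E14.5 epithelium labelled mutant. At 4-fold, 2 were lower in mutant mesenchyme, 0 lower in the E12.5 epithelium labelled mutant, 0 higher in the E14.5 epithelium labelled mutant and 0 higher between stages in the libraries labelled mutant. At 1.5-fold, 6 were lower in the E12.5 epithelium labelled mutant, 6 higher at E14.5, and 1 lower and 1 higher between control stages. With DESeq2 size factors 5 were lower in mutant mesenchyme and 1 was higher in the E14.5 epithelium labelled mutant. With plain CPM 1 was lower between control stages. Shares of all measured genes are given for the reported setting alone, so these recomputed counts describe the members only. The log2 ratio of the summed level at E14.5 between genotypes was 0.60 with plain CPM and 0.46 without the most abundant member. Between control stages it was -0.06 as reported, -0.22 with plain CPM and 0.15 without Csf1r, a reversal that shows the sum rested on Csf1r. Without the most abundant member it was -2.33 between control fractions, -3.39 between fractions labelled mutant and 1.21 between stages in the libraries labelled mutant.

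Depth limits mutant mesenchyme most, where the members had between 8 and 47 reads each. No paired analysis was possible because each comparison holds 1 library per group and so shares fewer than 2 replicate numbers. This concerns each comparison by itself. A genotype term over the pairs was not fitted, for the reason given with the processing. The table of the E12.5 epithelial control is named in another form than the other 5, so a difference in handling cannot be told apart from the group.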
